A study of Mus musculus with 10 samples.

Results

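Wnt pathway genes were examined in the hippocampus of mice 4 days after experimental subarachnoid hemorrhage (SAH), a bleed into the fluid space around the brain. The members were all gene names of the count files that belong to the Wnt ligands, the Frizzled and Lrp5 or Lrp6 receptors, the R-spondins, the secreted inhibitors (Sfrp, Dkk, Dkkl1 and Wif1), the cytoplasmic genes Ctnnb1, Axin1, Axin2, Nkd1 and Nkd2, and the nuclear factors Lef1, Tcf7, Tcf7l1 and Tcf7l2. These were 54 of 24391 gene names, made up of 19 ligands, 12 receptors, 10 secreted inhibitors, 4 R-spondins, 5 cytoplasmic genes and 4 transcription factors. The rule matches gene names and uses no measured value.

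Bilateral whole hippocampus was taken from male mice of 10 to 14 weeks, of the strain spelled C56BL/6J in the methods. Surgery was done under isoflurane anesthesia, and the methods name no other drug treatment for any group. In the SAH mice (n = 4) a filament pushed up the internal carotid artery was driven through the wall of the circle of Willis at the base of the brain, and only mice with a drop in cerebral blood flow were kept. In the Sham mice (n = 3) the operation was the same except that the vessel wall was left intact, and the Naive mice (n = 3) had no operation. Whether Naive mice were anesthetized is not stated. The puncture was made on 1 side while the hippocampi of both sides were pooled, so the side of the injury cannot be told apart from the other. Sham and Naive mice together are called control below (n = 6).

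Wnt proteins are secreted, lipid-bearing signals. When they bind a Frizzled receptor together with Lrp5 or Lrp6, a cytoplasmic complex built on Axin and Apc stops marking beta-catenin (the product of Ctnnb1) for destruction, and beta-catenin then acts in the nucleus with the TCF/LEF factors. Sfrp and Wif1 proteins bind Wnts, Dkk1, Dkk2 and Dkk4 bind the Lrp co-receptors, and R-spondins raise the amount of receptor at the cell surface. Axin2, Nkd1, Lef1 and Tcf7 are switched on by the pathway in many tissues, and Axin2 and Nkd1 then dampen it. In the adult hippocampus Wnt signals are known for their part in granule cell formation and at synapses, and in brain endothelium Wnt7 signals keep the blood-brain barrier.

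Each mouse gave 1 library with 19743388 to 27254655 counts of read pairs, and the members held 0.153 to 0.162% of them. Of the 54 members, 52 had at least 1 count, and 46 passed the filter on low counts and were tested. Wnt1 and Dkk4 had 0 counts in all 10 mice, where 3 counts over the summed 238493591 would make 0.0126 CPM (the count of a gene scaled to sequencing depth). The other 6 untested members were Wnt3a, Wnt6, Wnt8a, Rspo4, Dkk1 and Sfrp5. Markers of dentate granule cells summed to between 338 and 541 CPM and markers of CA pyramidal neurons to between 1262 and 1370 CPM in every mouse, so markers of the labelled tissue were present. The pyramidal list includes the member Dkk3, which alone had 440 to 518 CPM. Markers of the choroid plexus, which lies against the hippocampus, were uneven, at 1307 CPM in SAH 3, 915 in SAH 4 and 882 in Sham 7 against 55.6 to 236 in the other 7 mice. All values are from bulk tissue, in which fewer cells of a type and less RNA per cell cannot be told apart.

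Per kilobase of exon (RPKM, which is CPM divided by exon length), the intracellular effector and 1 secreted protein stood far above the rest. Ctnnb1 had a mean of 164 ± 4.90 RPKM (SD over the 10 mice). Dkk3, a secreted glycoprotein of the Dickkopf family that is itself a marker of CA pyramidal neurons, had 139 ± 8.05 RPKM. Every mouse had more Ctnnb1 than any mouse had Dkk3, and more Dkk3 than any mouse had of the next member.

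Wnt7b was the most abundant ligand at a mean of 11.1 RPKM, followed by Wnt7a at 4.41 RPKM and Wnt4 at 4.00 RPKM. Fzd3, a Frizzled known for axon guidance, was the most abundant receptor at 8.62 RPKM, and Lrp6 at 7.51 RPKM exceeded Lrp5 at 2.31 RPKM. Among the R-spondins the highest were Rspo2 at 8.28 RPKM and Rspo3 at 5.71 RPKM. Axin1 at 7.73 RPKM and Axin2 at 5.19 RPKM led the cytoplasmic genes after Ctnnb1, while the transcription factors were low, from 1.58 RPKM for Tcf7l1 to 0.959 RPKM for Tcf7. Many places in this order are not distinct. In 48 of the 53 neighbouring pairs the 10 mice of one gene overlapped those of the next, and the levels separated after Ctnnb1, Dkk3, Wnt7b, Lrp6 and Wnt4 only.

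**Figure D1:**
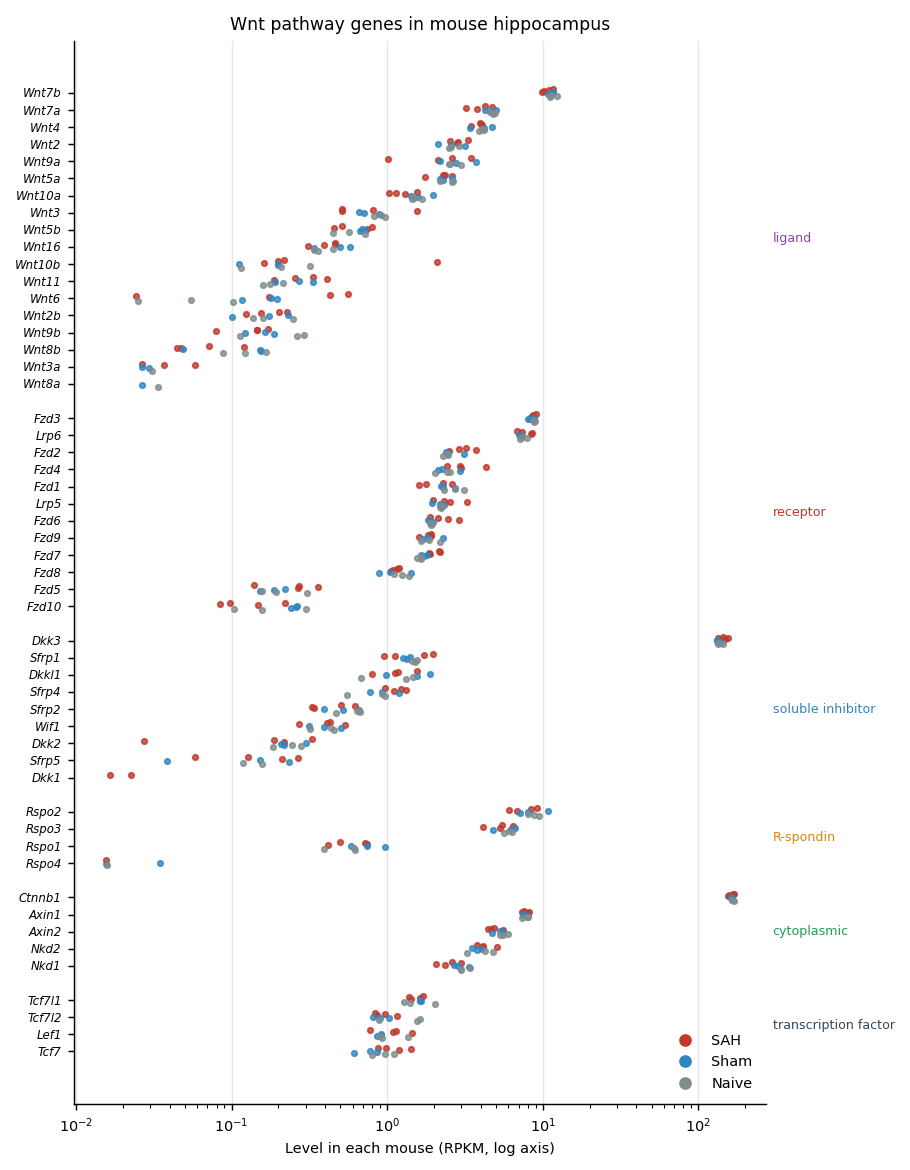
Level of each member in RPKM (log scale), with 1 point per mouse, the members grouped by role. Ctnnb1 and Dkk3 lie above 100 RPKM, Wnt7b is the highest ligand at a mean of 11.1 RPKM, and values of 0 have no point, so that Wnt1 and Dkk4 are not drawn.

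The comparison of SAH with control asks which of these genes differ after the bleed. One member passed the threshold of 0.10 on the adjusted p of edgeR's quasi-likelihood test, the receptor gene Fzd7, which rose. That is 1 of 46 tested members, or 2.17%, where 4.68% of all 14993 tested genes passed, which is the larger share. DESeq2 also called 1 member, with 6.87% of all genes called. At an unadjusted edgeR p under 0.05 there were 10 members, 6 of them higher and 4 lower in SAH, where the shares over all genes were 9.13% and 7.87%. The log2 fold changes of the members had a median of −0.05 (all tested genes −0.0024), with 21 positive and 25 negative. For 22 of the 46 the 95% interval of the log2 fold change lay within ±0.5.

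**Figure D2:**
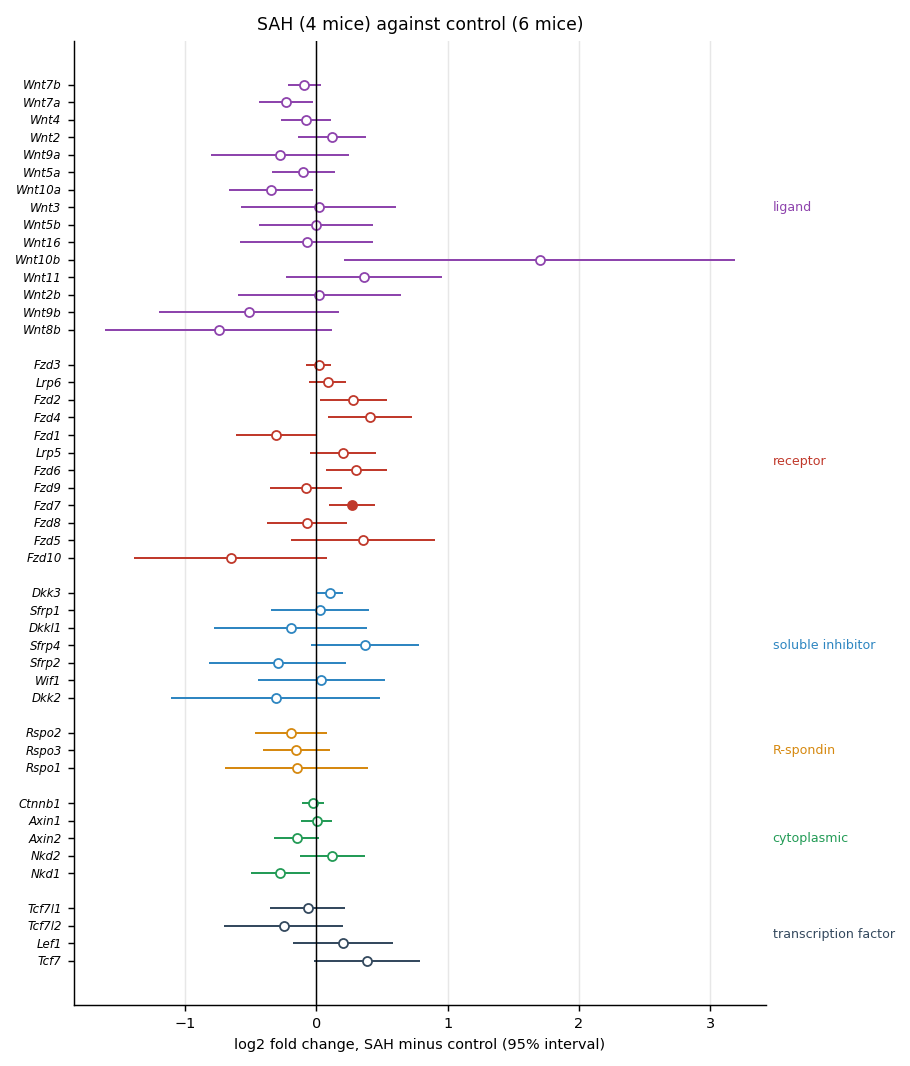
Log2 fold change of each tested member between SAH (n = 4) and control (n = 6) mice with its 95% interval, from edgeR, grouped by role. Fzd7 at 0.27 is the one member called; Wnt10b has the largest estimate, 1.70, with an interval from 0.22 to 3.18.

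Fzd7 encodes a Frizzled receptor, and its single stretch of exon lies on the plus strand of chromosome 1 (mm9, 59538991 to 59543799). It had 10.3, 10.4, 8.94 and 9.11 CPM in SAH 1 to 4, 8.63, 7.90 and 8.29 CPM in Sham 5 to 7, and 7.90, 7.51 and 7.98 CPM in Naive 8 to 10. All 4 SAH mice were above all 6 control mice, although SAH 3 and SAH 4 lay close to Sham 5. Complete separation of this kind was seen for 1 member with SAH above and 0 with SAH below, where 2.83% and 2.37% of all tested genes showed it. The log2 fold change was 0.27 (SE 0.077, 95% interval 0.11 to 0.44, adjusted p = 0.0832 from edgeR), a rise of 20.9%. The call is close to its threshold: with each mouse left out in turn it was made in 2 of 10 fits, with log2 fold changes from 0.24 to 0.31 and edgeR adjusted p-values from 0.0563 to 0.169. Without SAH 3, SAH 4 and Sham 7, the mice with the most choroid plexus marker RNA, the log2 fold change was 0.38 (adjusted p = 0.0519 from edgeR). That fit keeps only SAH 1 and SAH 2 of the SAH mice. Over all genes it called 330, where the main fit called 701. A smaller group and less choroid plexus RNA cannot be told apart in it, here or for the genes below.

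Promoter sequence is shown for Fzd7, the member that was called, and for Axin2, the textbook target gene of the pathway, which was not. Each line gives the 250 bases before the start of the RefSeq transcript (GRCm38.p6, in the direction of the gene), for Fzd7 chr1:59481897-59482146 and for Axin2 chr11:108920099-108920348, both on the plus strand. Capitals mark a match to a TCF/LEF core, searched on both strands. The letters searched were CTTTGAT first, then CTTTGAA, besides these CTTTGTT and also CTTTGTA, none of which can overlap another at the same position.
Fzd7: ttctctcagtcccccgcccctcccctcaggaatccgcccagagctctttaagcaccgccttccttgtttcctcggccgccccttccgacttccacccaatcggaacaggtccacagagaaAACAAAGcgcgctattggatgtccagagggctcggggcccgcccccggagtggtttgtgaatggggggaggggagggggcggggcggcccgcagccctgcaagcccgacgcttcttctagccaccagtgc
Axin2: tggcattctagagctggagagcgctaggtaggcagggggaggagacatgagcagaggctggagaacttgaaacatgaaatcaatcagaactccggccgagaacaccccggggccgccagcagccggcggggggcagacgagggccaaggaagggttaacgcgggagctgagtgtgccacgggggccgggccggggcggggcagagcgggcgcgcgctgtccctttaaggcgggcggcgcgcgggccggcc
The Fzd7 window held 1 match, on the reverse strand with its first base 130 bases before the start, and the Axin2 window held 0. The Fzd7 match is to CTTTGTT, which was added to the search after the windows had been seen, and CTTTGAT and CTTTGAA had no match there. RefSeq windows were found for 37 of the 54 members, 46 windows in all, of which 6 (13.0%) held a match, where 14.8% of all 32851 promoter windows did. The other members with a match were Dkk1, Lef1, Tcf7l2, Wnt11 and Wnt5b. A match to these letters is a description of the window and says nothing of binding.

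Of the 12 receptors tested 1 was called, where 4.68% of all tested genes were, and at an unadjusted edgeR p under 0.05 there were 4 higher and 1 lower, where the shares over all genes were 9.13% and 7.87%. In all, 8 receptors had a positive and 4 a negative log2 fold change, with a median of 0.15. Fzd4, the receptor for Norrin and for Wnt7 signals in vessel-forming endothelium, had 8.90, 10.8, 15.9 and 11.0 CPM in SAH 1 to 4, 8.25, 7.87 and 10.8 CPM in Sham mice, and 8.88, 9.31 and 7.43 CPM in Naive mice. SAH 3 stood highest and SAH 1 lay within the control mice, and the log2 fold change was 0.41 (SE 0.14, adjusted p = 0.165 from edgeR). Fzd6, a Frizzled of planar cell polarity, had 7.83, 8.83, 10.2 and 12.03 CPM in SAH mice, 7.55, 7.79 and 8.21 CPM in Sham mice and 7.79, 8.02 and 7.89 CPM in Naive mice. Only SAH 1 lay within the narrow control range, and the log2 fold change was 0.30 (SE 0.10, adjusted p = 0.155 from edgeR). Single mice moved the size of these values, while the sign held for Fzd4 and Fzd6 in all 10 fits with 1 mouse left out. Each was called in 1 of these 10 fits. Fzd6 ran from 0.18 without SAH 4 (adjusted p = 0.347 from edgeR) to 0.39 without SAH 1, where it was called (adjusted p = 0.0483 from edgeR), and it was at 0.10 without SAH 3, SAH 4 and Sham 7 together. Fzd4 ran from 0.23 without SAH 3 (adjusted p = 0.398 from edgeR) to 0.51 without SAH 1, where it was called (adjusted p = 0.0689 from edgeR), and it was at 0.25 without those 3 mice.

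Fzd2 had 11.6, 10.5, 13.5 and 9.11 CPM in SAH mice, 8.67, 8.93 and 11.4 CPM in Sham mice and 8.84, 8.90 and 8.28 CPM in Naive mice. All SAH mice were above all Naive mice, while Sham 7 lay among the SAH mice, and the log2 fold change against control was 0.28 (SE 0.11, adjusted p = 0.228 from edgeR). It was at 0.18 without SAH 3 alone (adjusted p = 0.514 from edgeR), and at 0.34 and called without SAH 3, SAH 4 and Sham 7 together (adjusted p = 0.0826 from edgeR). Fzd1 ran the other way, with 10.0, 11.4, 7.78 and 6.99 CPM in SAH mice, 9.70, 10.0 and 11.99 CPM in Sham mice and 11.997, 13.7 and 10.2 CPM in Naive mice. SAH 3 and SAH 4 were the lowest of the 10 mice, and the log2 fold change was −0.31 (SE 0.14, adjusted p = 0.280 from edgeR). It was at −0.45 and called without SAH 2 (adjusted p = 0.0932 from edgeR), at −0.20 without SAH 4 (adjusted p = 0.483 from edgeR) and at −0.04 without SAH 3, SAH 4 and Sham 7 (adjusted p = 0.955 from edgeR).

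The co-receptor Lrp5 had 16.9 CPM in SAH 3 and between 10.1 and 13.1 CPM in the other 9 mice, and the log2 estimate was 0.21 (edgeR, adjusted p = 0.378). For the abundant receptor Fzd3 the interval was narrow, with a log2 fold change of 0.02 (95% interval −0.07 to 0.10). Lrp6, the main co-receptor by level, had 0.09 (95% interval −0.04 to 0.22). The other receptors were Fzd5 with a log2 fold change of 0.36, Fzd8 with −0.07, Fzd9 with −0.08 and Fzd10 with −0.65, and none had an unadjusted edgeR p under 0.05.

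**Figure D3:**
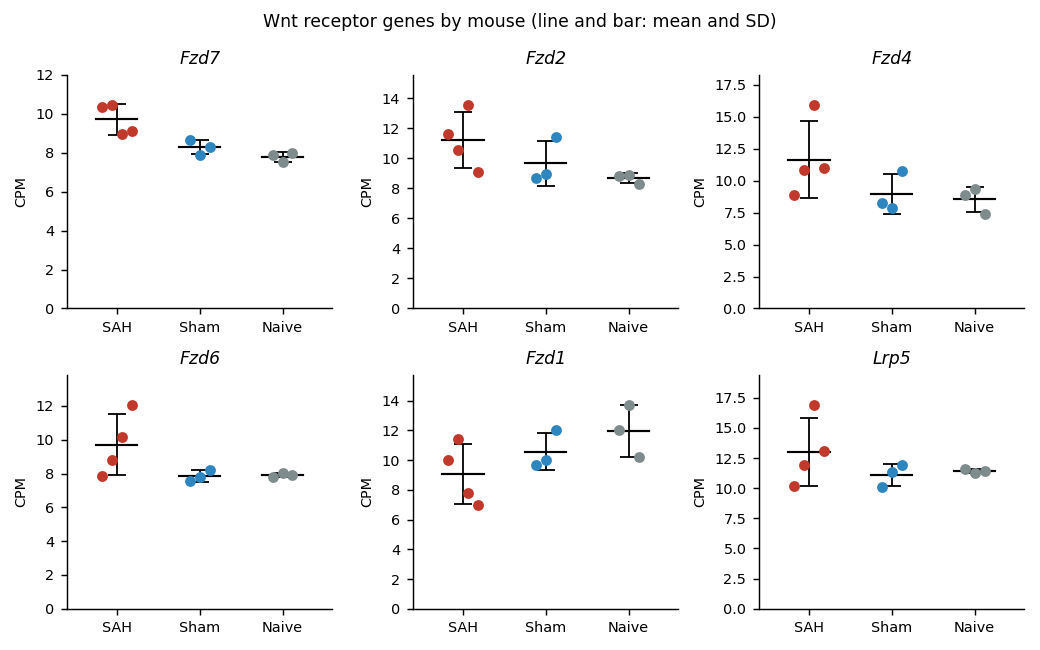
CPM of the receptor genes Fzd7, Fzd2, Fzd4, Fzd6, Fzd1 and Lrp5 in each mouse by group, each axis from 0, with lines for the mean and bars for the SD. The 4 SAH mice lie above every control mouse for Fzd7 only, and Fzd4 and Lrp5 are highest in SAH 3.

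Markers of the cells around vessels moved between the same groups. Endothelial markers summed to 243, 294, 343 and 418 CPM in SAH 1 to 4, 225 to 238 CPM in Sham mice and 228 to 289 CPM in Naive mice, with 5 of 14 called higher. Markers of pericytes and vascular smooth muscle summed to 128 to 186 CPM in SAH and 108 to 129 CPM in control mice, with 3 of 10 called higher. Markers of meningeal and perivascular fibroblasts summed to 233 to 431 CPM in SAH and 169 to 221 CPM in control mice, with 12 of 15 called higher. For comparison, 3.13% of all tested genes were called higher. Mature oligodendrocyte markers went the other way, at 5026 to 6398 CPM in SAH and 7382 to 10195 CPM in control mice, with 10 of 12 called lower, and microglia markers had 4 of 10 called higher. Markers of neural progenitors and neuroblasts summed to 126, 105, 73.7 and 92.9 CPM in SAH 1 to 4 and 116 to 129 CPM in control mice, with 2 of 9 called lower beside 1.54% of all genes. They were lowest in SAH 3 and SAH 4, as were Fzd1, Wnt7a and Nkd1. The part of these cell types in the values of the members was not tested.

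None of the 15 ligands tested was called by edgeR, where 4.68% of all tested genes were. DESeq2 called none of the 14 it gave an adjusted p, where 6.87% of all genes were, and gave none for Wnt10b. At an unadjusted edgeR p under 0.05 there were 1 higher and 2 lower, where the shares over all genes were 9.13% and 7.87%. Wnt7b, the most abundant ligand, had 43.4 to 51.5 CPM in SAH and 47.6 to 54.1 CPM in control mice. The interval of its log2 fold change of −0.09 ran from −0.21 to 0.02. Wnt7a, the other ligand of brain endothelium, had 13.4, 14.9, 10.3 and 11.99 CPM in SAH mice, 15.9, 13.6 and 14.5 CPM in Sham mice and 14.5, 15.7 and 15.2 CPM in Naive mice. SAH 1, SAH 3 and SAH 4 were below all control mice and SAH 2 was among them. The log2 fold change was −0.23 (SE 0.093, adjusted p = 0.226 from edgeR). It was at −0.32 and called without SAH 2 (adjusted p = 0.0708 from edgeR), at −0.14 without SAH 3 (adjusted p = 0.483 from edgeR) and at −0.07 without SAH 3, SAH 4 and Sham 7 (adjusted p = 0.840 from edgeR). Wnt10a had a log2 fold change of −0.34 (SE 0.15, adjusted p = 0.250 from edgeR) with overlapping groups at 2.02 to 3.05 CPM in SAH and 2.79 to 3.84 CPM in control mice. Over the 15 tested ligands the median log2 fold change was −0.08. Those not named with values of their own (Wnt2, Wnt2b, Wnt4, Wnt5a, Wnt5b, Wnt8b, Wnt9b, Wnt11 and Wnt16) ran from −0.74 for Wnt8b to 0.36 for Wnt11. Of the untested ligands, Wnt3a had 0 to 4 counts per mouse and Wnt8a 0 to 1.

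Wnt10b stood apart in a single mouse, SAH 3, and it and the genes set beside it here were picked out after their values were seen. Wnt10b (chromosome 15, minus strand, mm9 98602183 to 98608581) had 4.65 CPM in SAH 3, from 92 counts. It had 0.484, 0.441 and 0.360 CPM in the other SAH mice, 0.248 to 0.443 CPM in Sham mice and 0.255 to 0.715 CPM in Naive mice. Its log2 fold change of 1.70 (SE 0.69, adjusted p = 0.226 from edgeR) became −0.01 without SAH 3. Wnt1, which lies 11706 bases from Wnt10b, was at 0 in SAH 3 as well.

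Wnt6 was low in the same mouse, though no lower than in Naive 9. It had 24, 24, 1 and 9 counts in SAH 1 to 4, 9, 11 and 6 in Sham 5 to 7, and 3, 1 and 5 in Naive 8 to 10. SAH 1 and SAH 2 were highest, and SAH 3 was level with the lowest Naive mouse. It did not pass the filter on low counts. With no filter its log2 fold change was 1.36 (adjusted p = 0.256 from edgeR), and without SAH 3 it passed the filter and was called at 1.70 (adjusted p = 0.0671 from edgeR). Without SAH 3, SAH 4 and Sham 7 together it was called at 2.06 (adjusted p = 0.0281 from edgeR). In both fits SAH 1 and SAH 2, where Wnt6 was highest, carried it past the filter, so these calls are no support for a rise. The fibroblast markers summed to 431, 401, 233 and 318 CPM in SAH 1 to 4, 209 to 221 CPM in Sham mice and 169 to 176 CPM in Naive mice, and their part in the Wnt6 values was not tested.

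Wnt9a was at 3.33 CPM in SAH 3, below the 6.99 to 12.4 CPM of the other 9 mice, and Dkk2 was at 2 counts there, below the 16 to 27 counts of all others. Wnt3 was highest in SAH 3, at 4.85 CPM against 1.596 to 3.01 CPM. SAH 3 also had the most choroid plexus marker RNA, with Ttr at 1110.1 CPM, and the part of that tissue in these values was not tested.

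**Figure D4:**
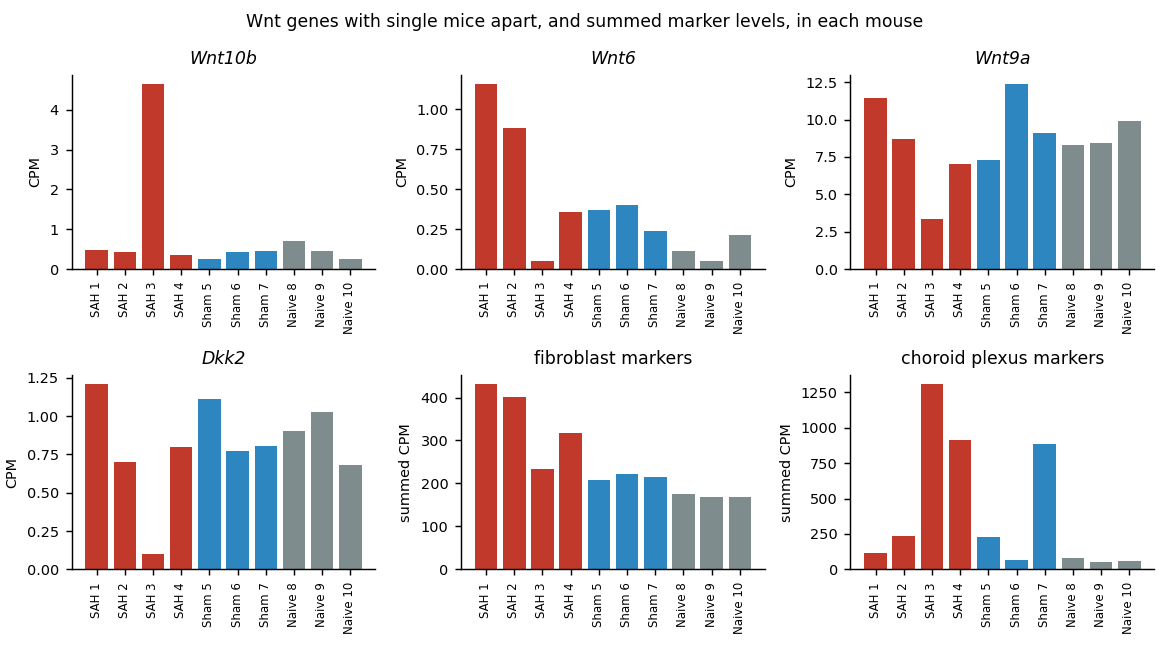
CPM of Wnt10b, Wnt6, Wnt9a and Dkk2, and summed CPM of fibroblast and choroid plexus markers, with 1 bar per mouse from 0, coloured by the group named on the axis. Wnt10b peaks at 4.65 CPM in SAH 3, where Wnt6, Wnt9a and Dkk2 are at or near their lowest and choroid plexus markers reach 1307 CPM.

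Of the 3 R-spondins tested 0 were called by edgeR or DESeq2, where 4.68% and 6.87% of all genes were, and 0 had an unadjusted edgeR p under 0.05, where 9.13% of all genes did as higher and 7.87% as lower. Rspo2, the highest of them, had a log2 fold change of −0.19 (95% interval −0.46 to 0.08) and Rspo3 one of −0.15 (95% interval −0.40 to 0.10). Rspo1, the lowest tested, had −0.15 (95% interval −0.69 to 0.39). Of the 7 secreted inhibitors tested 0 were called by either tool, beside the same 4.68% and 6.87% of all genes. Dkk3 alone had an unadjusted edgeR p under 0.05, as 9.13% of all genes did in that direction. Dkk3 had 484, 452, 518 and 502 CPM in SAH mice, 440, 444 and 466 CPM in Sham mice and 446, 481 and 450 CPM in Naive mice. SAH 1, SAH 3 and SAH 4 were above all control mice, and the log2 fold change was 0.11 (SE 0.042, adjusted p = 0.223 from edgeR). Dkk3 was at 0.14 and called without SAH 2 (adjusted p = 0.0779 from edgeR) and at 0.05 without SAH 3, SAH 4 and Sham 7 (adjusted p = 0.762 from edgeR). The other inhibitors tested ran from −0.31 for Dkk2 to 0.37 for Sfrp4, with Sfrp1, Sfrp2, Wif1 and Dkkl1 between them. Sfrp5 had 0 to 11 counts per mouse and Rspo4 0 to 2. Dkk1, an inhibitor that is also a known target gene of the pathway, was at 1 count in SAH 2 and SAH 3 and at 0 in the other 8 mice.

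All 5 cytoplasmic genes had 95% intervals within ±0.5, with 0 called by edgeR or DESeq2 (4.68% and 6.87% of all genes) and 1 lower at an unadjusted edgeR p under 0.05 (7.87% of all genes). Ctnnb1 had 615, 608, 566 and 565 CPM in SAH mice against 590 to 616 CPM in control mice. SAH 3 and SAH 4 were the lowest of the 10 mice, and the log2 fold change was −0.02 (95% interval −0.10 to 0.05). The feedback inhibitor Nkd1 had 11.7, 13.2, 9.20 and 10.6 CPM in SAH mice, 11.97, 12.8 and 14.9 CPM in Sham mice and 15.2, 13.2 and 13.2 CPM in Naive mice. SAH 1, SAH 3 and SAH 4 were below all control mice, and the log2 fold change was −0.27 (SE 0.10, adjusted p = 0.186 from edgeR). Nkd1 was at −0.37 and called without SAH 2 (adjusted p = 0.0642 from edgeR), at −0.19 without SAH 3 (adjusted p = 0.393 from edgeR) and at −0.08 without SAH 3, SAH 4 and Sham 7 (adjusted p = 0.831 from edgeR).

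Axin2, whose promoter is given above, had 20.6, 19.8, 18.8 and 23.6 CPM in SAH mice, 22.7, 23.6 and 20.1 CPM in Sham mice and 25.3, 22.5 and 23.7 CPM in Naive mice. SAH 2 and SAH 3 were the lowest of the 10 mice and the groups overlapped, and the log2 fold change was −0.15 (95% interval −0.31 to 0.01, adjusted p = 0.343 from edgeR). Axin1 had 0.0018 (95% interval −0.11 to 0.11) and Nkd2, the other Naked gene, 0.12 (95% interval −0.12 to 0.36). Over the list of 14 feedback and target genes of beta-catenin, 5 of them members, 13 were tested and 0 were called by edgeR, with 1 at an unadjusted p under 0.05 and a median log2 fold change of 0.06. Over all genes 4.68% were called, and at an unadjusted edgeR p under 0.05 there were 9.13% higher and 7.87% lower.

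Of the 4 transcription factors 0 were called by edgeR or DESeq2 (4.68% and 6.87% of all genes), and 0 had an unadjusted edgeR p under 0.05 against control (9.13% of all genes higher and 7.87% lower). Tcf7 had 1.93, 2.17, 3.18 and 2.64 CPM in SAH mice, 1.73, 1.91 and 1.37 CPM in Sham mice and 2.14, 2.47 and 1.78 CPM in Naive mice. The SAH mice were above the Sham mice without overlap and overlapped the Naive mice, with a log2 fold change against control of 0.38 (95% interval −0.01 to 0.78, adjusted p = 0.308 from edgeR). Lef1 had 2.85 to 5.36 CPM in SAH and 3.18 to 5.04 CPM in control mice, with a log2 fold change of 0.20 (95% interval −0.17 to 0.57). Tcf7l1, mostly a repressor, had −0.07 (95% interval −0.34 to 0.21). T cells are known for high Tcf7 and Lef1, and their markers summed to 4.50 to 6.21 CPM in SAH and 4.52 to 5.76 CPM in control mice, with Cd3e at 0 to 2 and Cd8a at 0 to 1 counts.

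Tcf7l2, which is known for strong expression in thalamus and habenula, had 7.41 and 7.13 CPM in Naive 8 and Naive 10. It had 4.01 CPM in Naive 9, 3.71 to 4.67 CPM in Sham mice and 3.82 to 5.24 CPM in SAH mice. The 2 high values were both in Naive mice, and no other mouse exceeded 5.24 CPM. Markers of thalamus and habenula summed to 264, 257 and 317 CPM in Naive 8, 9 and 10, 242 to 249 CPM in Sham mice and 225 to 257 CPM in SAH mice, and their part in the Tcf7l2 values was not tested.

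**Figure D5:**
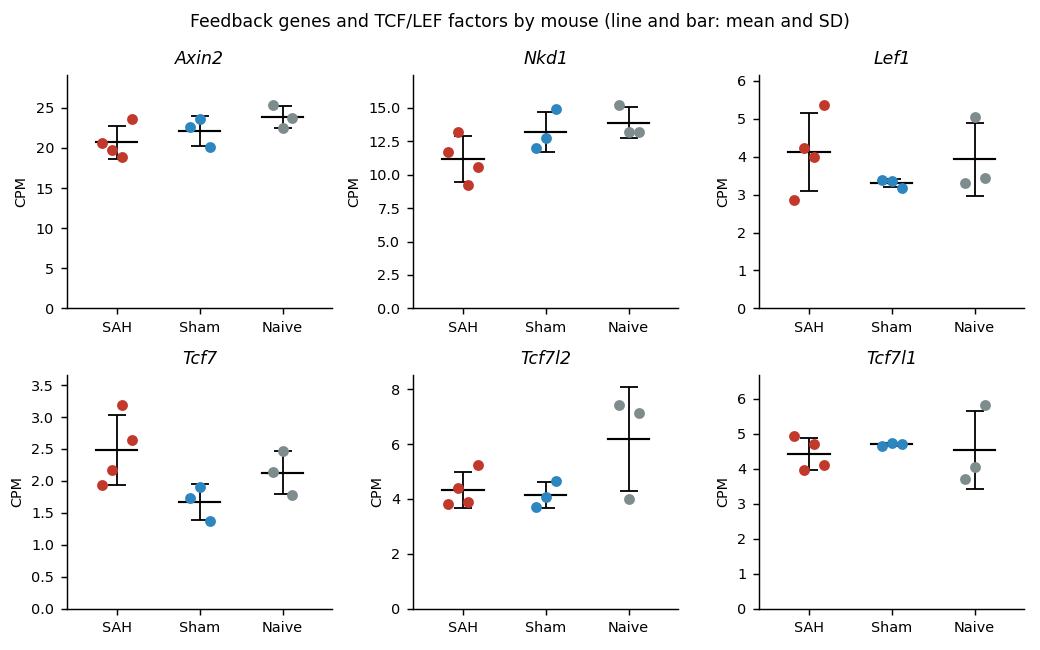
CPM of Axin2, Nkd1, Lef1, Tcf7, Tcf7l2 and Tcf7l1 in each mouse by group, each axis from 0, with lines for the mean and bars for the SD. The groups overlap against pooled control for all 6 genes, and Tcf7l2 is highest in Naive 8 and Naive 10.

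Taking the control groups apart asks whether a difference goes with the bleed or with the operation. The comparisons share mice, so their values are set side by side and are not independent. Against Sham, 0 of 46 members were called by edgeR or by DESeq2, where 0.747% and 1.98% of all tested genes were, and 5 had an unadjusted edgeR p under 0.05 (9.64% of all genes). Against Naive, 0 were called by either tool, where edgeR called 2.93% and DESeq2 4.89% of all genes, and 10 had an unadjusted edgeR p under 0.05 (14.7% of all genes). Between Sham and Naive, 0 were called by either tool, where edgeR called 0.00667% and DESeq2 0.0133% of all genes, and 1 member had an unadjusted edgeR p under 0.05 (2.00% of all genes).

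The log2 fold change of Fzd7 was 0.23 against Sham (edgeR, adjusted p = 0.440) and 0.32 against Naive (edgeR, adjusted p = 0.133), with all SAH mice above both groups. Tcf7 had 0.56 against Sham (SE 0.21, adjusted p = 0.410 from edgeR), the smallest adjusted p of the members there. Fzd10, at 0.253 to 0.662 CPM in SAH mice and 0.724 to 0.784 CPM in Sham mice, had −0.83 (adjusted p = 0.522 from edgeR). These were the members without overlap between SAH and Sham, 2 above and 1 below, where 5.00% and 4.47% of all tested genes were so.

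Against Naive, Fzd7 and Fzd2 had all SAH mice above, where 6.98% of all tested genes did, and 0 members had all below (6.80% of all genes). For Fzd2 the log2 fold change was 0.36 (edgeR, adjusted p = 0.239). Tcf7l2 was the single member at an unadjusted p under 0.05 between Sham and Naive, with −0.58 (SE 0.21, adjusted p = 1.00 from edgeR), and it had −0.52 between SAH and Naive (adjusted p = 0.241 from edgeR). The latter was at −0.74 and called without Naive 9 (adjusted p = 0.0783 from edgeR), and at −0.36 without Naive 8 (adjusted p = 0.597 from edgeR). Sfrp1, a secreted Wnt binder, was at 5.51 to 6.15 CPM in Sham mice and 6.32 to 6.84 CPM in Naive mice without overlap, the lower group being Sham as for 4.17% of all tested genes, while SAH mice spread from 4.19 to 8.66 CPM.

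The rest of the pathway was followed through a list of 63 further genes for secretion, co-receptors, the destruction complex and planar polarity, of which 60 were tested. edgeR called 5 of them, 1 higher and 4 lower, beside 3.13% and 1.54% of all tested genes, and the median log2 fold change of the 60 was −0.03. Reck, a membrane-anchored protein that with Adgra2 lets endothelial cells respond to Wnt7a and Wnt7b, rose. It had 11.4, 12.2, 15.4 and 14.1 CPM in SAH mice, 9.08, 11.1 and 9.37 CPM in Sham mice and 9.18, 8.69 and 8.53 CPM in Naive mice. All SAH mice were above all control mice, where 2.83% of all tested genes showed this. The log2 fold change was 0.50 (SE 0.099, adjusted p = 0.0150 from edgeR). The log2 fold change of Reck was 0.42 against Sham (adjusted p = 0.185 from edgeR) and 0.59 against Naive (adjusted p = 0.0263 from edgeR). Against Sham it was called with DESeq2 (adjusted p = 0.0706). In the comparison with pooled control Reck was called in every fit with 1 mouse left out, and not without SAH 3, SAH 4 and Sham 7 together, at 0.34 (adjusted p = 0.194 from edgeR). Its partner Adgra2, named here for that role after the values were seen, was at −0.16 on the log2 scale (adjusted p = 0.226 from edgeR).

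The 4 genes that fell belong to different steps of the pathway. Apc, the scaffold of the destruction complex, fell by 0.20 on the log2 scale (SE 0.050, adjusted p = 0.0528 from edgeR), from 524 to 595 CPM in control to 454 to 512 CPM in SAH mice. Draxin, a secreted guidance protein that binds Lrp6, fell by 0.64 (SE 0.16, adjusted p = 0.0580 from edgeR), with 1.36 to 2.06 CPM in SAH and 2.27 to 3.01 CPM in control mice. For Apc and Draxin no SAH mouse reached the control range, where 2.37% of all tested genes had all SAH mice below. Both were picked by this same comparison, so the separation is no further support.

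Daam1, a formin of planar polarity signaling, fell by 0.15 (adjusted p = 0.0774 from edgeR), at 92.3 to 97.1 CPM in SAH and 101 to 113 CPM in control mice. Dvl3, one of the Dishevelled proteins that carry the signal from Frizzled, fell by 0.30 (adjusted p = 0.0812 from edgeR), at 29.5 to 38.2 CPM in SAH and 37.7 to 48.5 CPM in control mice. The groups did not overlap for Daam1, where 2.37% of all tested genes had all SAH mice below. SAH 2 overlapped the control mice for Dvl3. Against Sham, edgeR called 0 of Reck, Apc, Draxin, Daam1 and Dvl3, where 0.747% of all tested genes were called. All 5 had an unadjusted edgeR p under 0.05 there, where 9.64% of all genes did. They were picked by the comparison with pooled control, which holds the same mice, so these low p-values are no further support. Against Naive, edgeR called Reck, Daam1 at −0.19 (adjusted p = 0.0564 from edgeR) and Dvl3 at −0.39 (adjusted p = 0.0466 from edgeR), where 2.93% of all genes were called. With single mice left out of the comparison with pooled control, between 1 and 7 of the listed genes were called. Without SAH 3, without SAH 4 or without Naive 8 only Reck was, where 570, 308 and 361 of all genes were called. The 7 were called without SAH 1 and again without SAH 2, where 974 and 1093 of all genes were. Without SAH 3, SAH 4 and Sham 7 together, edgeR called 0 of the listed genes, with 7 at an unadjusted p under 0.05. Only SAH 1 and SAH 2 remain of the SAH mice in that fit, which called 330 of all genes, where the main fit called 701. Draxin was then at −0.36 (adjusted p = 0.537 from edgeR), Apc at −0.13 (adjusted p = 0.308 from edgeR), Daam1 at −0.14 (adjusted p = 0.276 from edgeR) and Dvl3 at −0.21 (adjusted p = 0.391 from edgeR).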

How the data were processed

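The authors depleted ribosomal RNA, made stranded libraries, sequenced read pairs of 50 bases, aligned them to mm9 with STAR and counted exonic, uniquely placed pairs per gene name on the matching strand with featureCounts 1.6.2. Reads that could come from more than 1 gene were left out, which lowers genes with near-identical copies. The deposited values are raw counts per gene, and no normalization had been applied. Here counts were scaled by TMM and tested with edgeR 4.0.16 in R 4.3.3 (quasi-likelihood test, filterByExpr with minimum count 10 and minimum total 15, Benjamini-Hochberg adjustment over 14993 genes, threshold 0.10). SAH was compared with pooled control, as in the study. Pairwise contrasts used 1 model with 3 group means. The standard error is the log2 fold change divided by the square root of F. CPM use the scaled library sizes, and RPKM divide CPM by the exon length of the files. DESeq2 1.42.0 was an alternative. Depth was 19743388 to 27254655 counts per mouse, and limits for 0 counts cover counting error only. Libraries are from separate mice, and no 2 of the same group were alike enough to be duplicates. Pairs across groups were not compared. Code was tested on simulated data. Every member could be named. By rule, per-mouse values went to members past the threshold or without overlap between SAH and control, which was Fzd7, and the other genes given per mouse were chosen after their values were seen. Members and gene lists were chosen with earlier results of these data known. The promoter windows are RefSeq's, and the letters CTTTGTT and CTTTGTA were added after the windows had been seen.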

Additional observations from a re-analysis of the deposited data

Results flagged for a closer look

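In the 4 SAH mice, Wnt10b stood at 4.65 CPM in SAH 3 and at 0.360 to 0.484 CPM in the other mice, a gap beyond Dixon's 95% critical value. It was the only one of 48 members checked in the SAH group with such a gap, and chance alone gives about 1 in 20. SAH 3 also had the highest choroid plexus marker level, 1307 CPM, and its part in the Wnt10b value was not tested.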

How the results depend on the processing

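Against control, 1 member was called (Fzd7), also with DESeq2, with DESeq2's size factors, with library size alone and with at least 10 counts in every mouse. It was 0 at an adjusted p under 0.05, 0 with no filter on low counts (Fzd7 at adjusted p = 0.117 from edgeR) and 0 for SAH against the mean of Sham and Naive (adjusted p = 0.1003 from edgeR). It was 3 (Fzd7, Wnt6 and Fzd2) without SAH 3, SAH 4 and Sham 7 together, a setting chosen after the data were seen. That setting keeps only SAH 1 and SAH 2 of the SAH mice, and it called 330 of all genes. Wnt6, untested in the main fit, passed the filter where SAH 3 was left out through SAH 1 and SAH 2, its highest mice. With each mouse left out in turn the count of called members was 0 to 4, with 4 without SAH 2, 2 without SAH 1 and 2 without SAH 3. Calls over all genes moved as well, from 308 without SAH 4 to 1093 without SAH 2. They were 974 without SAH 1 and 570 without SAH 3, where the main fit had 701. Against Sham, and between Sham and Naive, 0 members were called under every alternative run. Against Naive the count was 0 under the other settings and 0 to 2 with a mouse left out, with 2 without SAH 3 (Fzd7 and Wnt6) and 1 without Naive 9. Calls over all genes there were 439 in the main fit, 492 without SAH 3 and 152 without Naive 9. Of the other pathway genes 5 were called, 0 without SAH 3, SAH 4 and Sham 7 together, 5 or 6 under the other settings and 1 to 7 with a mouse left out (1 without SAH 3, SAH 4 or Naive 8, 2 without Naive 9 or Naive 10). Of the 10 members at an unadjusted p under 0.05, whose fold changes were followed through these settings, Wnt10b alone changed sign, to −0.013 without SAH 3, the range with a mouse left out being −0.013 to 2.04. The causes were not tested. By CPM, Ctnnb1 and Dkk3 again ranked 1 and 2 of all members, and Wnt7b and Fzd3 ranked 1 among ligands and receptors. Counts under about 30 in a mouse, as for Wnt6, Wnt10b and Dkk2, limit what can be detected. No paired analysis was possible because no animal number occurs in more than 1 group.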
